A study of Eriocheir sinensis with 6 samples.

Results

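In walking-leg muscle of the Chinese mitten crab Eriocheir sinensis, 359 accessible chromatin regions shared by all 3 ATAC-seq libraries lay at the 3' ends of annotated genes. They were found by merging the peak intervals of the 3 libraries, which gave 68059 regions, of which 29787 were touched by a peak of every library. Members were those shared regions that touched the 500 bp on either side of the 3' end of an annotated gene and lay over 2 kb from every listed gene start. Of all shared regions, 22211 lay over 2 kb from every start, and the 359 members were at the 3' ends of 358 genes. In all, 13392 of the 21314 annotated genes were eligible, meaning that at least 1 base of the window at the 3' end was over 2 kb from every start, so 2.67% of the eligible genes had a member. A further 689 shared regions at 3' ends, of 725 genes, lay within 2 kb of a start and were left out.

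The samples were muscle of 3 untreated wild-type juvenile male crabs in the molt period, labelled Mu_E_1, Mu_E_2 and Mu_E_3, with 1 ATAC-seq and 1 RNA-seq library each. The sample titles give the period as E, and the series' design text calls the stage D. There was no second condition, so comparisons are between regions or between genes of the same libraries. ATAC-seq uses a transposase that cuts accessible DNA, and the peak lists held 44610 to 52473 peaks and 56607 to 68956 summits per library, with the fewest in Mu_E_2. RNA-seq gave 7088747 to 7788537 fragments on the listed genes per library. They were recovered from the FPKM (fragments scaled by gene model length and a factor per library) and the model lengths. That factor did not follow these totals. At evm.TU.CM024149.1.29, 186731 fragments in Mu_E_1 gave an FPKM of 99463, and 93368 in Mu_E_3 gave 18120. FPKM levels are therefore not directly comparable between libraries, and the medians of gene sets were compared within each library. Rankings, classes and filters by mean FPKM, and correlations with it, used the mean of the listed values over the 3 libraries. A fragment in Mu_E_3 counts for less in that mean. The expression table carries no gene descriptions, so muscle markers could not be checked and genes are named by the identifiers of their predicted models.

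At the 3' end of a protein-coding gene the transcript is cut and polyadenylated, and RNA polymerase II goes on past the cut site before it is released. Nucleosomes can be sparse around such ends, and enhancers and unannotated starts can also lie there, so a peak at a 3' end does not by itself name its kind. ATAC-seq reads accessibility only and carries no strand. Positions of exons, introns and untranslated regions are not part of the table, so a 3' end here is the last listed base of a gene model.

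In most pairs of a member and its gene, the region covered the annotated 3' end. The rule picks regions that touch a window centred on that end, so it shapes this share. How much of the share follows from the rule and the region widths was not tested. The 359 members made 366 pairs of a region and a gene, since 7 regions reached the 3' ends of 2 genes. In 221 pairs (60.4%) the region covered the last base of the gene, in 58 pairs (15.8%) it ended before that base inside the gene, and in 87 pairs (23.8%) it began after it. The plot of the regions by distance from the 3' end shows these as a band of intervals leaning across the end. A single member was found at 350 genes and a pair of members at 8 genes, and 0 genes had more.

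**Figure D1:**
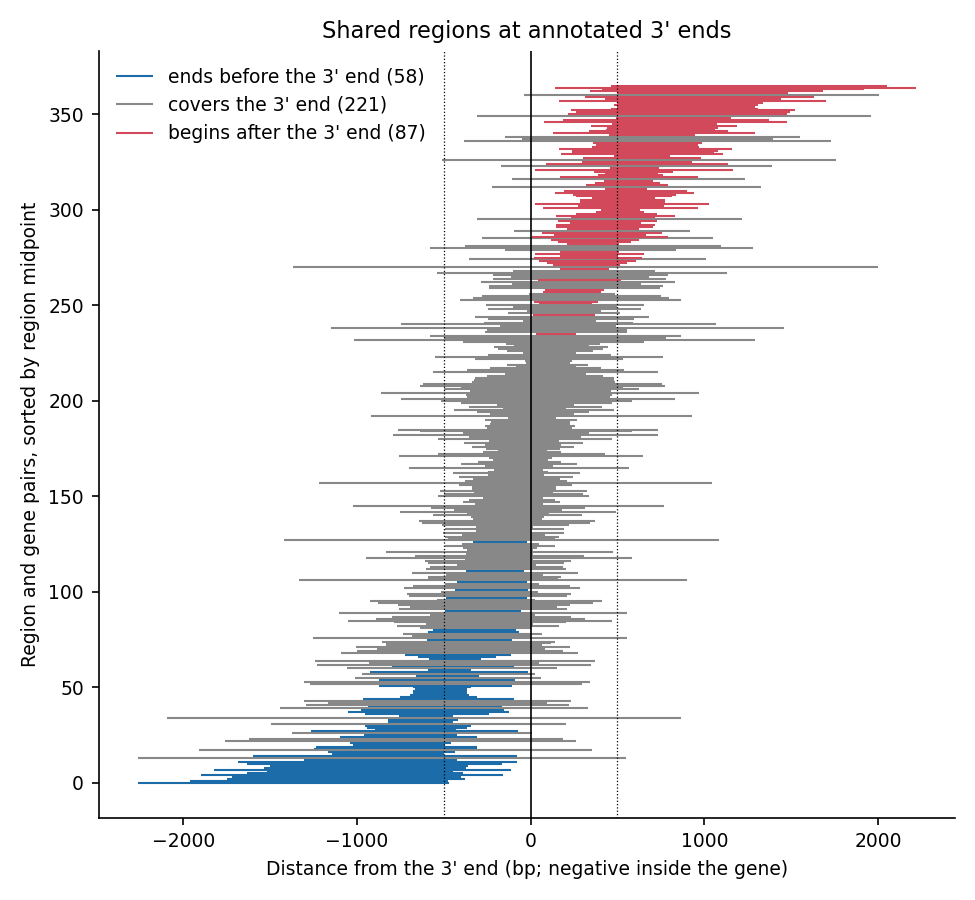
Each horizontal line is the extent of 1 shared region in bp from the 3' end of its gene (negative values lie inside the gene), sorted by midpoint over 366 pairs of region and gene, with dotted lines at the 500 bp limits. Most lines (221) cross the 3' end, 58 end before it and 87 begin after it.

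Members were spread over the genome. On the numbered chromosomes there were 283 members (78.8%), found on 66 of the 72 chromosomes with annotated genes, and no sequence held more than 13. The other 76 members (21.2%) lay on 66 sequences outside the chromosomes. Those sequences carried few eligible genes, and a member was found at 75 of 386 of them (19.4%), against 283 of 13006 eligible genes (2.18%) on the chromosomes. Shared regions 2 to 3 kb downstream, at genes without a member, were also more frequent there. They were at 7.25% of eligible genes, against 1.65% on the chromosomes. Results are therefore given for the chromosomes alone as well. Genes with a member were on the plus strand in 187 cases (52.2%). The share among all eligible genes is not given here, so no lean to a strand is read from this count.

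A summit of a shared region was more frequent at the 3' end than in the flanks. Within 500 bp of the 3' end, Mu_E_1, Mu_E_2 and Mu_E_3 had 34.3, 30.9 and 33.9 summits per Mb of eligible bases. In the flanks 2 to 3 kb away on both sides the densities were 19.2, 18.2 and 20.2 summits per eligible Mb. Every library was denser at the 3' end, and the ranges of the 2 places did not overlap. The ratio was 1.78, 1.70 and 1.68, a mean of 1.72 ± 0.05 (SD, n = 3 libraries). A two-sided exact sign-flip test over the libraries gave p = 0.25, the smallest p that 3 libraries allow. The libraries are not independent here, because all of them touch every region counted. Bases were summed over all 21314 annotated genes. A gene with no eligible base at its 3' end could still add flank bases. Eligible bases came to 12.2 Mb at the 3' end, 14.1 Mb in the upstream flank and 15.0 Mb in the downstream flank. With gene spans of at least 5 kb and no other start within 5 kb of the 3' end, the ratio was 1.75 ± 0.07. The ratio over eligible genes alone was not tested.

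On the numbered chromosomes the densities were lower in both places and the contrast remained. Summits numbered 27.5, 25.3 and 27.3 per eligible Mb at the 3' end, against 16.5, 15.7 and 17.5 in the flanks, a ratio of 1.61 ± 0.05. On the other sequences the density was 262 ± 25.7 at the 3' end and 105 ± 6.69 in the flanks, a ratio of 2.50 ± 0.09 (SD, n = 3 libraries each). These sequences rest on 0.331 Mb of eligible bases at 3' ends, and they raised the density over all genes more than the ratio.

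The flanks themselves were uneven. On the downstream side the density was 21.7 ± 1.20 summits per eligible Mb, and on the upstream side, inside the gene, it was 16.5 ± 0.82. Against either flank the 33.0 ± 1.88 summits per eligible Mb at the 3' end was higher in every library. The last 200 bp of the gene were the densest, at 47.4, 42.9 and 42.1 summits per eligible Mb in the 3 libraries. The first 200 bp past the end followed with 32.0, 32.8 and 35.7. On the chromosomes these windows had 35.2 ± 1.70 and 28.1 ± 1.90. The highest density therefore lay just inside the annotated end, by more than the spread between libraries.

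The contrast differed with the kind of gene model, a split chosen after the data were examined. Of the annotated models, 73.3% had a length divisible by 3, as a coding sequence without untranslated regions has, against 31.6% of the 7357 genes that their identifiers set apart as additions to the annotation. On the chromosomes, models of such a length had 32.1 ± 1.28 summits per eligible Mb at the 3' end and 17.6 ± 1.05 in the flanks, a ratio of 1.83 ± 0.11 over 15046 genes. Models of other lengths had 15.97 ± 1.497 at the 3' end and 14.1 ± 0.78 in the flanks, a ratio of 1.14 ± 0.07 over 5579 genes. Both ratios were above 1 in every library. For the models of other lengths this rested on the upstream flank, at 10.1 ± 0.13, since the downstream flank had 19.5, 16.8 and 19.0 summits per eligible Mb in the 3 libraries and was denser than the 3' end in each.

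Among genes that every RNA-seq library listed at an FPKM of at least 1, the split was wider in level. For models with a length divisible by 3 the density was 40.6 ± 1.66 at the 3' end and 24.5 ± 0.88 in the flanks, a ratio of 1.66 ± 0.07 over 5939 genes. For models of other lengths it was 16.1 ± 1.73 at the 3' end and 17.6 ± 1.53 in the flanks, a ratio of 0.914 ± 0.06 over 2687 genes, below 1 in every library. Among the 358 genes with a member, 76.8% had a model length divisible by 3, against 67.1% of the 13034 eligible genes without one. How far the annotated ends lie from the ends of the transcripts was not tested.

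**Figure D2:**
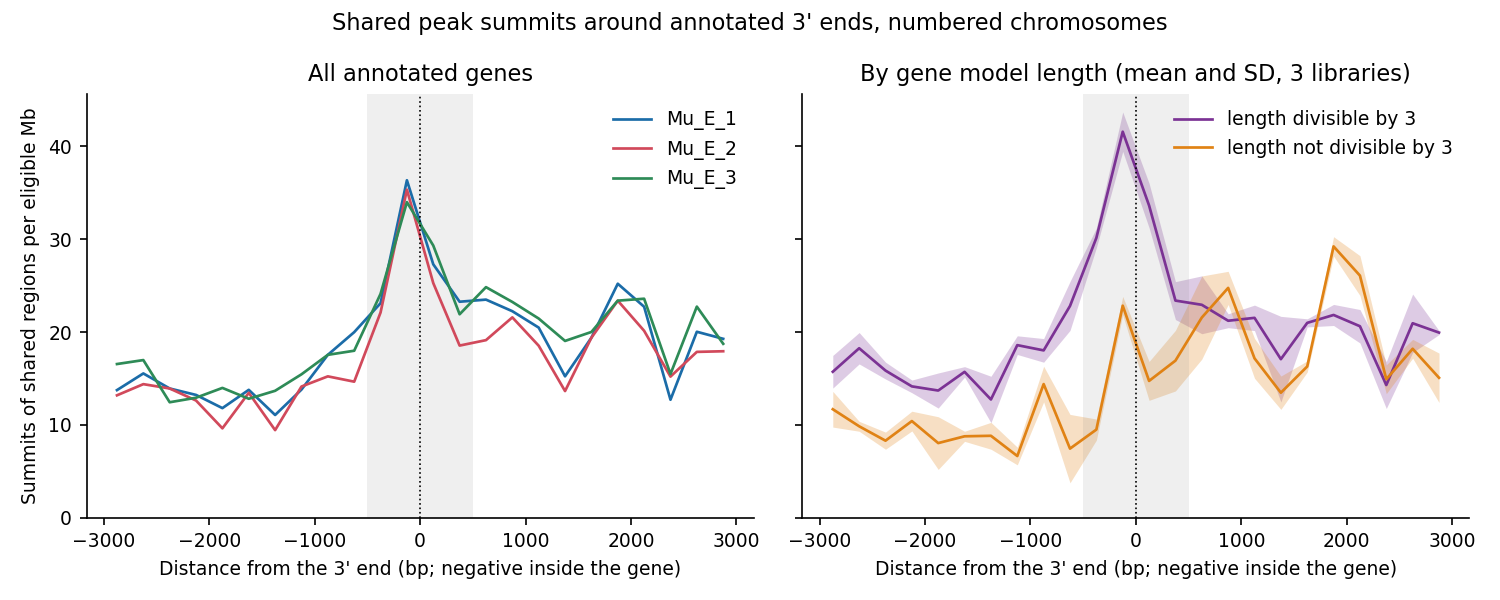
Summits of shared regions per Mb of eligible bases in bins of 250 bp against distance from the 3' end in bp (negative inside the gene), on the numbered chromosomes, with the 500 bp window shaded; left, each ATAC-seq library, and right, the mean (line) and SD (band) of the 3 libraries by gene model length. The last 250 bp of the gene hold the highest density in each library (36.3, 35.3 and 34.0), and the rise is taller for models with a length divisible by 3.

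Peaks at 3' ends differed little in strength from peaks nearby. The fold enrichment is the authors' peak caller's ratio of reads at a summit to the local background, and the highest summit of each region was taken. Its median over the 359 members was 4.57, 4.95 and 4.71 in Mu_E_1, Mu_E_2 and Mu_E_3. Over the 615 shared regions in the flanks it was 4.45, 4.45 and 4.57. Their log2 difference was 0.08 ± 0.07 (SD, n = 3 libraries; exact sign-flip p = 0.25), about as large as its spread. The other 21852 shared regions over 2 kb from every start had medians of 4.78, 4.91 and 4.78.

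Members were wider than those regions. Their median width was 773 bp, against 624 bp in the flanks and 584 bp in the other regions far from starts, and it ran from 230 to 3370 bp. More than 1 summit in a library was listed for 59.1% of the members and 52.2% of the flank regions. A wider region is more likely to touch a window of a set size, so the rule favours wide regions over the other regions far from starts. The flank regions were picked by windows of a set size as well. Why members were wider than the flank regions was not tested.

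Among themselves the members differed by more than the libraries did. The fold enrichment ran from 1.68 to 29.6 in Mu_E_1, from 1.54 to 22.9 in Mu_E_2 and from 1.65 to 25.5 in Mu_E_3. Over the 359 members the Spearman correlation between libraries was 0.83 for Mu_E_1 and Mu_E_2, 0.89 for Mu_E_1 and Mu_E_3, and 0.83 for Mu_E_2 and Mu_E_3. These are correlations across regions chosen as present in all 3 libraries, and no p is given. Before the demand for all 3 libraries, 939 merged regions met the limits at 3' ends, and 38.2% of them were shared by all 3. Of the 54299 merged regions over 2 kb from every start the share was 40.9%.

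The strongest members lay at genes with little or no listed expression. The highest mean fold enrichment was at evm.TU.CM024166.1.536, whose member spans CM024166.1:18706028-18706385 in the assembly of the study and begins 12 bp past the 3' end. It was at 29.1, 22.9 and 22.9 in the 3 libraries, and the FPKM was 0 in each. The member of evm.TU.CM024133.1.30 (CM024133.1:888427-888760) had 26.0, 11.8 and 25.5, and that of evm.TU.CM024129.1.240 (CM024129.1:6030042-6030531) had 29.6, 4.65 and 24.1. In both, Mu_E_2 was far below the other libraries, and both genes were listed at an FPKM of 0 in all 3. These were also the members with the highest fold enrichment of all genes listed at 0.

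The next in strength were evm.TU.CM024143.1.146, evm.TU.CM024098.1.348 and evm.TU.JACDRO010001523.1.1, with mean fold enrichments of 15.9, 14.4 and 14.4. The first was listed at an FPKM of 0 in all libraries. The others had at most 1 fragment in any library. The widest member, 3370 bp, covered the 3' end of evm.TU.CM024134.1.338, a gene with an FPKM of 601, 794 and 444, and its fold enrichment was only 2.13, 2.64 and 2.01. The next in width, at evm.TU.CM024164.1.335 (2961 bp) and evm.TU.JACDRO010000410.1.2 (2816 bp), had mean fold enrichments of 6.01 and 5.44. None of the 3 widest members was thus among the 6 strongest. The relation of strength and width over all members was not tested.

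At the 8 genes with a pair of members, the pair differed in position. In 6 of them, 1 region covered the 3' end and the other lay 115 to 468 bp past it or 449 bp before it. At evm.TU.CM024133.1.332 the FPKM was 1164, 886 and 432. The region across its 3' end had a fold enrichment of 3.72, 3.05 and 3.12, and the region 369 bp downstream had 3.24, 2.19 and 2.72. At evm.TU.CM024134.1.493, listed at an FPKM of 0, the region across the 3' end had 11.04, 8.99 and 9.64, and the region 115 bp downstream had 4.56, 3.72 and 4.42. In both genes the region on the 3' end was the stronger one in every library. This did not hold for all 6 pairs. At evm.TU.CM024145.1.87 the region across the 3' end had 3.90, 4.36 and 6.27, and the one downstream had 5.47, 5.16 and 5.62. At evm.TU.CM024103.1.249 the downstream region was the stronger one in Mu_E_2, where it had 7.55 and the region across the 3' end had 6.05.

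In the median, genes with a member did not differ in expression from other eligible genes beyond the spread between libraries. Their median FPKM was 1.07, 1.13 and 0.856 in the 3 RNA-seq libraries, against 1.04, 0.849 and 1.01 in the 13034 eligible genes without a member. Measured as log2(FPKM + 1), the medians differed by 0.02, 0.21 and -0.11, on average by 0.04 ± 0.16 (SD over 3 libraries; exact sign-flip p = 0.75). The libraries did not share a direction, so no difference was shown. On the numbered chromosomes the medians were 1.95, 2.31 and 1.37 in the 283 genes with a member, against 1.10, 0.912 and 1.10 in 12723 genes without. There the difference was above 0 in 3 of 3 libraries, at 0.49 ± 0.31 (exact sign-flip p = 0.25). On the other sequences the median FPKM was 0 in both sets in every library.

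The value over all genes thus moved with the 75 genes outside the chromosomes, where expression was low and members were frequent. Among genes with a mean FPKM of at least 1, a filter on the compared quantity itself, the difference was 0.69 ± 0.55 over all sequences and 0.93 ± 0.53 on the chromosomes (SD over 3 libraries). Without the ATAC-seq library Mu_E_2, which gives 487 members, it was 0.27 ± 0.18 over all sequences.

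Beside genes with a shared region nearby, those with a member were not the more expressed ones. The 243 genes with a shared region 2 to 3 kb downstream and no member had a median FPKM of 1.46, 1.83 and 1.78. The difference of the genes with a member from these was -0.41 ± 0.16, below 0 in 3 of 3 libraries (exact sign-flip p = 0.25). On the chromosomes it was -0.27 ± 0.21. Against the 150 genes with a shared region only 2 to 3 kb inside the gene it was -0.65 ± 0.05, and -0.78 ± 0.08 on the chromosomes. With only genes at a mean FPKM of at least 1, a filter on the compared quantity itself, the difference from the downstream set was 0.15 ± 0.47, which shows no direction.

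Members were more frequent at the most expressed genes. Each RNA-seq library's expressed genes were put into 10 equal groups by FPKM. On the chromosomes a member was found at 5.09% ± 0.61 of the eligible genes in the highest group, 1.95% ± 0.04 in groups 1 to 9 together and 1.96% ± 0.05 of the genes at an FPKM of 0 (SD, n = 3 RNA-seq libraries). The plot of these shares is flat over the lower groups and rises at the top. Shared regions 2 to 3 kb downstream, at genes without a member, rose there too, to 3.34% ± 0.25 in the highest group. Groups 1 to 9 together had 1.65% ± 0.03. Shared regions only 2 to 3 kb inside the gene rose as well. They were at 0.98% ± 0.32 in group 8, 1.77% ± 0.50 in group 9 and 2.80% ± 0.65 in group 10. The rise was thus not particular to the 3' end.

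**Figure D3:**
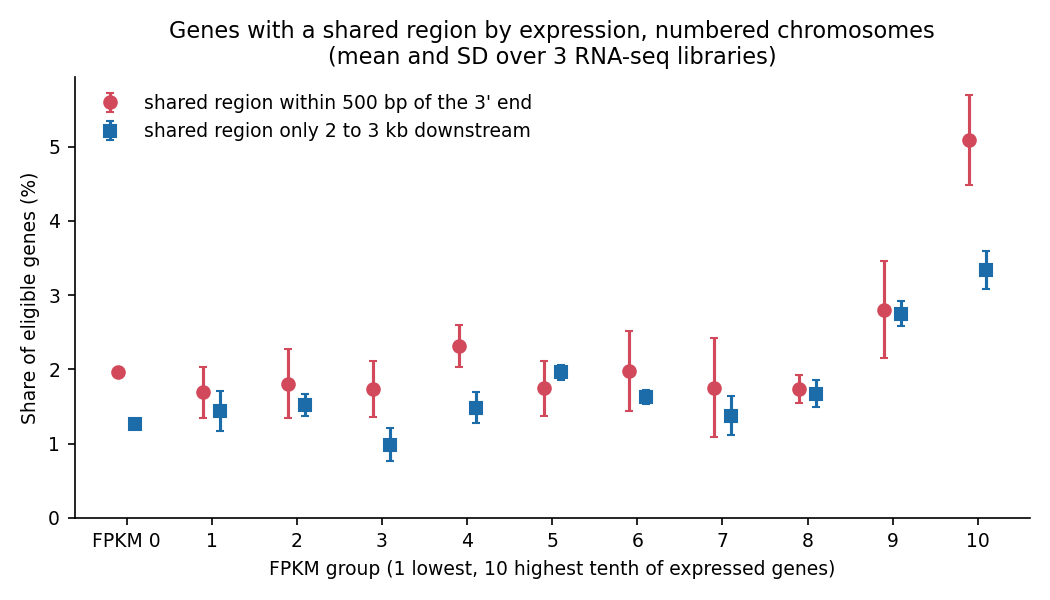
Share of eligible genes in percent with a shared region within 500 bp of the 3' end (circles) and with one only 2 to 3 kb downstream (squares), against FPKM group, on the numbered chromosomes; symbols and bars are the mean and SD over 3 RNA-seq libraries. Group 10, the most expressed, stands above the rest for both, at 5.09% and 3.34%.

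At the upper end of expression, 24 genes with a member on the chromosomes (8.48%) reached an FPKM of 100 in every RNA-seq library, against 298 eligible genes without one (2.34%). Of the 1000 most expressed eligible genes there, 51 had a member, and of the first 100, 7 had one. The same number, 7, of those 100 had a shared region only in the downstream flank. For densities, groups 1 to 5, 6 to 9 and 10 were set by mean FPKM instead. The limits came from eligible expressed genes of all sequences and were applied to all annotated genes, eligible or not. Group 10 so held 1628 genes on the chromosomes, and 4693 genes there were at an FPKM of 0 in every library. These are not the same sets of genes as the groups by library above. At the 3' ends of group 10 on the chromosomes the density was 56.6 ± 3.14 summits per eligible Mb, and their flanks had 43.8 ± 2.50, a ratio of 1.29 ± 0.07. In expressed genes of groups 1 to 5 the density was 25.6 ± 0.88 at the 3' end and 13.6 ± 1.01 in the flanks, a ratio of 1.89 ± 0.09. Groups 6 to 9 had nearly the same density at the 3' end, 26.0 ± 1.58, with 16.6 ± 0.46 in the flanks, a ratio of 1.56 ± 0.05. Genes at an FPKM of 0 had 17.9 ± 1.59 at the 3' end and 11.95 ± 0.80 in the flanks, a ratio of 1.505 ± 0.17. The density at the end was thus highest in group 10 and alike in groups 1 to 5 and 6 to 9, and the ratio did not follow the order of expression.

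The relation to expression was split by whether the gene's own start was also accessible. Of the 358 genes with a member, 38.8% had a shared region within 2 kb of their own start, against 30.1% of the eligible genes without one. On the chromosomes the genes with both had a median FPKM of 20.5, 15.8 and 10.2, against 4.89, 4.30 and 5.19 in 3819 genes with a region at the start only, a difference of 1.46 ± 0.54. In genes with no shared region at the start the medians were 0.562, 0.622 and 0.476 in 180 genes with a member, against 0.377, 0.292 and 0.304 in 8904 without, a difference of 0.23 ± 0.09. Both differences were above 0 in 3 of 3 libraries (exact sign-flip p = 0.25 each). Over all sequences the genes with a region at the start gave -0.29 ± 0.47. At genes with an accessible start the ratio of 3' end to flank density was 1.48 ± 0.08, and at genes without one it was 1.89 ± 0.06. The difference between the start classes was not tested.

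Members at highly expressed genes had low fold enrichment. At eligible genes with a mean FPKM of at least 100 the 36 members had a median fold enrichment of 2.79, 2.62 and 3.02. At genes with a mean FPKM of 1 to 100 the 146 members had 5.06, 5.14 and 5.37, and at genes with an FPKM of 0 in all libraries the 77 members had 4.92, 4.95 and 4.58. The ranges over libraries of the first set and the others did not overlap. Regions in the downstream flank showed the same order, with 3.19, 3.29 and 3.48 at the most expressed genes and 4.73, 5.21 and 5.02 at genes of 1 to 100. Across the 283 genes on the chromosomes the Spearman correlation of fold enrichment with mean FPKM was -0.30, and across all 358 it was -0.18. These points share libraries and local background, and are given as a description. The fold enrichment is relative to the local background, and the read depth of that background was not used here.

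**Figure D4:**
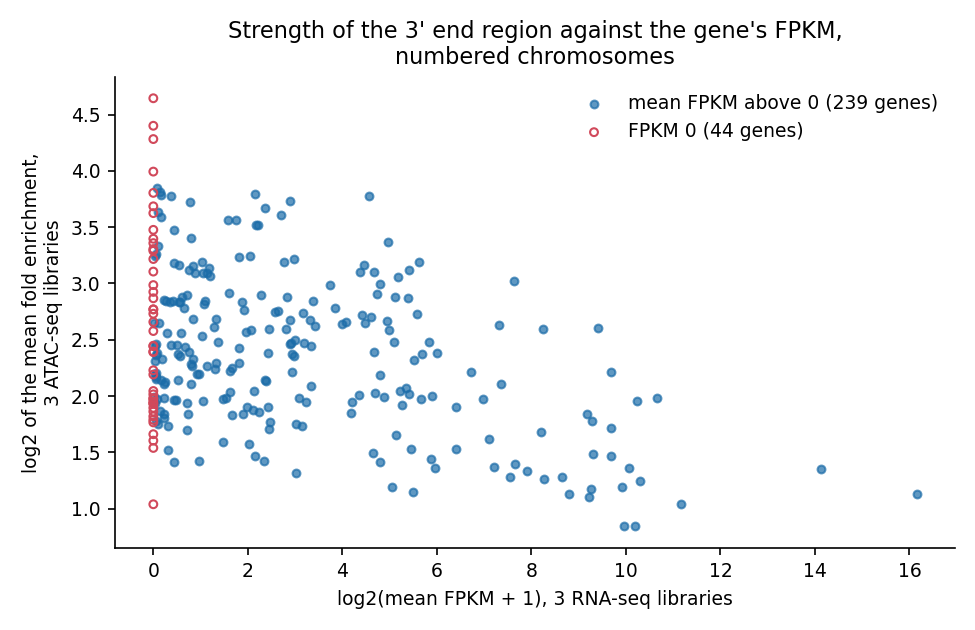
Mean fold enrichment of the member over 3 ATAC-seq libraries (log2 scale) against mean FPKM of its gene over 3 RNA-seq libraries (log2 of FPKM + 1), 1 point per gene with a member on the numbered chromosomes, with genes at an FPKM of 0 as open circles. Genes at an FPKM of 0 cover a wide range of strength and the genes at the far right have weak members, with a Spearman correlation of -0.30 over 283 genes.

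The most expressed gene with a member was evm.TU.CM024149.1.29 (CM024149.1:588468-601171, plus strand). The 3 libraries put its FPKM at 99463, 100758 and 18120, and its member, 242 bp before the 3' end, had a fold enrichment of 2.05, 2.74 and 1.77. Next came evm.TU.CM024119.1.475 (CM024119.1:18006711-18034304, minus strand), with an FPKM of 23243, 25934 and 4812 and a member 416 bp before the 3' end. Both members thus lay inside the gene near its end and were weak in every library.

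The other 4 of the 6 most expressed genes had a mean FPKM of 2301 (evm.TU.CM024108.1.207), 1607 (evm.TU.CM024096.1.143), 1253 (evm.TU.CM024122.1.30 joined with evm.TU.CM024122.1.31) and 1204 (evm.TU.CM024139.1.180). Their members had mean fold enrichments of 2.06, 3.96, 2.37 and 3.87. In all 6 genes Mu_E_3 had the lowest of the authors' FPKM. In fragments it was lowest in 5, while evm.TU.CM024096.1.143 had 4723, 6099 and 7684 fragments in the 3 libraries, so that order depended on the scaling. The FPKM in Mu_E_3 for evm.TU.CM024139.1.180 was 76.6, against 1711 in Mu_E_1 and 1825 in Mu_E_2. In fragments the gap was smaller, with 1522 in Mu_E_3, against 12390 in Mu_E_1 and 12578 in Mu_E_2. The identifier that joins 2 models is 1 of 4 such among the genes with a member. Which of the joined models holds the 3' end was not tested. Of the genes that the paper names by identifier, 11 were eligible, and only evm.TU.CM024125.1.103 had a member. It covered the 3' end with a fold enrichment of 5.42, 7.42 and 5.24, and the gene had an FPKM of 359, 454 and 98.1.

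Genes with a member had short models but not short spans. The median model length was 852.5 bases with a member and 1431 without, while the median span on the genome was 10833 and 10571.5 bp. Models as long as their span, with a single exon, were 4 of 358 (1.12%) with a member and 320 of 13034 (2.46%) without. Over 4 groups of equal size by span, the share of eligible genes with a member was 2.54%, 2.66%, 2.87% and 2.63% from the shortest to the longest, so members did not follow the span of the gene.

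Gene ends on the opposite strand were less often near genes with a member. Among genes on the chromosomes whose whole window was eligible, another gene on the opposite strand ended within 5 kb of the 3' end at 42 of 270 genes with a member (15.6%) and at 3136 of 10637 without (29.5%). Within 1 kb the shares were 5.19% and 10.6%. Tail-to-tail neighbours were thus less frequent at the members. Members reach past the window and must lie over 2 kb from every start in full, so the rule itself favours genes with sparse neighbours, and its part in these shares was not tested. A gene added to the annotation was touched by 8 members (2.23%) and by 18 flank regions (2.93%).

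At the limits of the rule, the members nearest to the 500 bp limit lay 499 bp (evm.TU.CM024100.1.173) and 498 bp (evm.TU.CM024137.1.433) from a 3' end, with fold enrichments of 2.51, 4.75 and 3.06 and of 3.76, 3.51 and 3.47. The nearest outside lay 502 bp away, at evm.TU.CM024112.1.210 with 8.36, 8.01 and 10.1 and at evm.TU.CM024164.1.62 with 5.22, 6.22 and 3.85. At the 2 kb limit the nearest members were 2012 bp (evm.TU.CM024119.1.648) and 2019 bp (evm.TU.CM024114.1.274) from a start, and the nearest left out were 1996 bp (evm.TU.CM024157.1.142) and 1978 bp (evm.TU.JACDRO010001420.1.1) away.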

How the data were processed

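Walking-leg muscle of 3 crabs was sampled, and each gave a library of both assays (grouped by the sample titles). For ATAC-seq, the authors aligned reads with BWA and ran MACS2 on every library separately, without pooling. Each deposited peak list gives positions, a score, the fold enrichment (a ratio to local background) and the −log10 of the p-value and q-value. Listed peaks had a q-value of at most 0.05. A shift of reads for the transposase is not given in the sources used here, and the score was not used. For RNA-seq, the authors aligned reads with HISAT2 2.0.5, counted fragments with featureCounts 1.5.0-p3 and deposited FPKM per gene, with gene position and model length. Tools and versions are from the submitters' processing notes and the paper. Per-sample columns left out numbered 0.

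Peaks were merged (overlap of at least 1 bp), and summits were counted per eligible base, that is per base over 2 kb from every annotated or added start, up to the largest coordinate listed on the sequence. Densities covered all genes of a set, eligible or not, and the gene counts beside the ratios include both. A library's densities and medians were computed first, then the mean and SD over 3 libraries. The exact sign-flip test is two-sided, with 0.25 as its smallest p. No test was run across genes or regions, and no comparison between conditions was possible. Expression was compared as log2(FPKM + 1), which understates changes of low genes. FPKM multiplied by model length gave whole fragments (within 0.05 of a fragment) for 100% of the values up to 1000 fragments, but the FPKM are not counts and no count model was run. SD over libraries does not cover the choice of regions. The procedure was tested on simulated data. Python 3.11.15, numpy 2.4.6, pandas 2.3.3, scipy 1.17.1 and matplotlib 3.10.9 were used.

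Members, gene lists and limits were chosen with earlier results of these data known. Named were the 6 strongest members, the 3 widest, those nearest each limit, the 6 genes with a member and the highest FPKM, the 3 genes at an FPKM of 0 with the strongest member, and genes that the paper names by identifier. The 8 genes with a pair of members were chosen after their values were seen, since no gene had 3 or more. Gene lists by description, cell type markers and sequence features were not run, because the table holds no descriptions and no genome of the build was used here. Alternatives covered peak threshold, overlap rule, window, distance from starts, flanks, sequence class, neighbours, pseudocount, filters and leaving out each library. Splits by model length, by expression class and by the paper's gene lists, and 2 further FPKM settings on the chromosomes, were added after the data were examined.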

Additional observations from a re-analysis of the deposited data

How the results depend on the processing

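The 359 member regions became 253 to 532 over 10 alternatives, and the 358 genes 254 to 509, all within 1.5 times. The difference in fold enrichment from the flanks stayed within 1 SD in all 10 alternatives. The density ratio of 1.72 stayed above 1 in all 17. It was 1.83 with a q-value limit of 1e-05, 1.98 with a window of 250 bp, 1.48 with 1000 bp and 1.4998 with regions over 1 kb from starts. It was 1.61 on the chromosomes, 1.88 with no other 3' end within 5 kb, 1.52 with region midpoints, 1.51 with all summits and 1.42 with flanks 3 to 5 kb away. Leaving out 1 ATAC-seq library gave 1.59 to 1.67.

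The FPKM difference from eligible genes without a member, 0.04, was 0.49 on the chromosomes, 0.69 at a mean FPKM of at least 1, 0.31 with no other 3' end within 5 kb and -0.29 at genes with an accessible start. With settings added after the data were examined it was 0.93 (chromosomes, mean FPKM of at least 1) and 0.38 (chromosomes, FPKM on each library's own fragments). Leaving out 1 library gave -0.047 to 0.27, the highest without the ATAC-seq library Mu_E_2. The difference from genes with a region only in the downstream flank, -0.41, was -0.24 with a q-value limit of 1e-05, -0.20 with regions over 1 kb and -0.62 with regions over 3 kb from starts. It was -0.91 with gene spans of at least 5 kb and no other start within 5 kb, and -0.68 with a pseudocount of 0.1. It was 0.15 ± 0.47 at a mean FPKM of at least 1, which shows no direction. Leaving out 1 library gave -0.49 to -0.29. The causes were not tested.

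No paired analysis was possible because no groups of samples were compared: there was 1 condition. Sets of regions or genes were compared within each library, and members were shared by all crabs, so the pairing of the assays by crab did not enter. Peaks below the authors' threshold are not listed, and counting error was not modelled. A gene without a member is one with no shared region at its 3' end that lay over 2 kb from every start. It can still have a peak there in some libraries, or a shared region there that lies nearer to a start. The same holds for the genes with a region only in the downstream flank.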

Other observations

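The study lists genes that differ between molt periods and carry a peak assigned to them that also differs. It chose them partly on these libraries, so the shares below are descriptions, with no test, and were added after the data were examined. Of the 228 eligible genes listed as up-regulated in Mu_D vs. Mu_E, 26 (11.4%) had a member, and 4.39% had a shared region only in the downstream flank. Of those listed as down-regulated there, 2 (1.72%) had a member. Of the 291 eligible genes listed as down-regulated in Mu_A vs. Mu_C, 26 (8.93%) had a member, and of the 31 up-regulated ones 0 had. In Mu_E vs. Mu_A, where down-regulated genes are lower after the molt, 2 of 16 down-regulated genes (12.5%) and 1 of 42 up-regulated genes (2.38%) had a member, numbers too small to compare. A share of 2.49% was found among the 12788 eligible genes in no list. Those without a member had a median FPKM of 0.897, 0.725 and 0.875. Up-regulated Mu_D vs. Mu_E genes without one had 52.4, 47.1 and 21.9. In the highest FPKM group of all sequences, 5.23% ± 0.52 of eligible genes had a member (SD, n = 3 RNA-seq libraries). A shared region at the own start was found at 50.0% of the up-regulated Mu_D vs. Mu_E genes and 29.8% of those in no list. Shares at matched expression were not tested. Of the 85 eligible genes both up-regulated in Mu_D vs. Mu_E and down-regulated in Mu_A vs. Mu_C, 14 (16.5%) had a member.

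The 26 genes with a member in the Mu_D vs. Mu_E list had a median FPKM of 233, 199 and 42.3 in Mu_E_1, Mu_E_2 and Mu_E_3. The other eligible genes up-regulated there had 52.4, 47.1 and 21.9. Expression was thus higher in the genes with a member in every library. The most expressed were evm.TU.CM024108.1.207, whose FPKM is given above as a mean of 2301, and the joined evm.TU.CM024122.1.30 and evm.TU.CM024122.1.31, with a mean of 1253. The neighbours evm.TU.CM024147.1.714 and evm.TU.CM024147.1.715 share 1 member of 2270 bp that covers both 3' ends. Their FPKM differed, at 1008, 1116 and 356 for evm.TU.CM024147.1.714, against 2.18, 6.88 and 1.33 for evm.TU.CM024147.1.715.

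Genes added to the annotation, whose 3' ends the rule does not use, had 143 shared regions at the 3' ends of 140 of 3438 eligible genes. The density was 48.5 ± 2.53 summits per eligible Mb at the 3' end and 34.1 ± 1.53 in the flanks, a ratio of 1.42 ± 0.03 (SD, n = 3 libraries). On the numbered chromosomes it was 29.4 ± 0.80 and 25.1 ± 1.44, a ratio of 1.17 ± 0.05, above 1 in 3 of 3 libraries. Among annotated genes on the chromosomes the ratio was 1.61 ± 0.05. Whether the difference between the ratios depends on the kind of model was not tested.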
